A study of Mus musculus with 2 samples.

Results

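The genes described here encode the proteins of the mitochondrial ribosome, the particle that translates the few messages kept in mitochondrial DNA. They were taken as all genes whose symbol begins with Mrpl or Mrps followed by a number, in the annotation of the array's probe sets. Of 15644 genes with a symbol on the array, 66 met this rule, 43 with a large subunit symbol (Mrpl) and 23 with a small subunit symbol (Mrps). Expression was measured in primary hepatocytes, liver parenchymal cells kept in culture, from a male C57BL/6 mouse aged 9 weeks. After 24 h in culture, the cells were given either 10 µmol/l pregnenolone 16α-carbonitrile (PCN), a steroid that activates the rodent pregnane X receptor, or its solvent dimethyl sulfoxide (DMSO), for 12 h. Each group is represented by 1 array carrying the pooled RNA of 3 samples, which gives 2 arrays without replicates. All cells came from the same mouse strain and sex, and no genetic change is given for either group. Every value below is that of a single array, so no test could be made, and "higher" and "lower" compare PCN with DMSO on these arrays alone.

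Mitochondrial ribosomes make a small set of hydrophobic subunits of the respiratory chain and ATP synthase. Their RNA is encoded in mitochondrial DNA, but every protein of the particle is encoded in the nucleus, made in the cytosol and imported. The large subunit forms peptide bonds and releases the chain at the inner membrane, and the small subunit decodes the message. Compared with bacterial ribosomes, the particle has lost RNA and gained many proteins that occur only in mitochondria. Hepatocytes are rich in mitochondria, and promoters of mitoribosomal genes are known for sites of the factors NRF1, GABP and YY1.

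Promoter windows of 4 genes are shown. Mrpl52 and Mrps26 had the greatest difference in their subunits, Mrpl32 holds matches to 2 of the motifs, and the small subunit gene Mrps11 lies head to head with a large subunit gene. Each is read 5′ to 3′ along the gene from RefSeq on GRCm38.p6, and 275 bases are printed, ending shortly after the annotated start. Capitals mark matches on either strand to CGCANGCG (NRF1), CCGGAAGT (GABP) or AAGATGGC (YY1). The windows lie at chr14:54426659-54426933 on the plus strand for Mrpl52 and chr2:130563507-130563781 on the plus strand for Mrps26. Those of Mrpl32 and Mrps11 lie at chr13:14613013-14613287 on the minus strand and chr7:78782881-78783155 on the plus strand.
Mrpl52: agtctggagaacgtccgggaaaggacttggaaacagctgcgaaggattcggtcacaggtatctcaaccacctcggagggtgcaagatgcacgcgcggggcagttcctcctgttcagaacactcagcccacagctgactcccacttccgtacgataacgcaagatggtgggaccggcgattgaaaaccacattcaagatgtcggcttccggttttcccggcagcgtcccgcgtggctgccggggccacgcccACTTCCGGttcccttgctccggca
Mrps26: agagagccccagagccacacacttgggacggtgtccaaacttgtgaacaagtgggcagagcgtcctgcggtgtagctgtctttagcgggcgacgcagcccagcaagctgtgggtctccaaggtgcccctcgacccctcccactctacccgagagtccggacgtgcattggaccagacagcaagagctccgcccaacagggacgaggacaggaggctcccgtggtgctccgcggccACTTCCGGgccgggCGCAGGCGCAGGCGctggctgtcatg
Mrpl32: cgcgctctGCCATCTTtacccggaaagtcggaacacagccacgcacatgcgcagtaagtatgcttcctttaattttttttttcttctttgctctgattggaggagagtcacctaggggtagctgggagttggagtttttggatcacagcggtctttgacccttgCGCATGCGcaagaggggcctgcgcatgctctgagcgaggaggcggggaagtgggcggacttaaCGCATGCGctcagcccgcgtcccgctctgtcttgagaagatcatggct
Mrps11: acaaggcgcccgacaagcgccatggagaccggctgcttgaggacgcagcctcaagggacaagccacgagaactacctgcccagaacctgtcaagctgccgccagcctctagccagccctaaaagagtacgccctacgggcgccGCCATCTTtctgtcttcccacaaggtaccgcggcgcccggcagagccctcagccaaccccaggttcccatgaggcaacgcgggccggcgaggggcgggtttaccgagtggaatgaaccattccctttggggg
The capitals are the GABP motif in Mrpl52, the GABP motif followed by 2 overlapping NRF1 matches in Mrps26, the YY1 motif and then 2 NRF1 matches in Mrpl32, and the YY1 motif in Mrps11.

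The mitoribosomal genes barely differed between the arrays. Of the 66 genes, 60 were measured, meaning an intensity of 32 (the floor) or more in at least 1 array, and all 60 reached it in both. Their log2 differences, PCN minus DMSO, ran from -0.09 to 0.35 with a median of 0.08, a 1.06-fold difference (0.05 with the trend of the difference on intensity removed). PCN was higher in 45 of the 60 (75%) and lower in 15. Over all 6449 measured genes, PCN was higher in 57.6% and lower in 42.4%, and the median was 0.03. A 1.2-fold difference was used as the size threshold. It was reached by 3 members with PCN higher (5.0%), where 9.06% of all measured genes reached it, and by 0 members with PCN lower, where 8.95% of all measured genes did. With that trend removed, 1 member, Mrpl52, passed it. None of the 60 differed by 1.5-fold, a size that 0.636% of measured genes reached with PCN higher and 1.30% with PCN lower, and so none differed by 2-fold, which 0.0930% and 0.233% reached. At 1.1-fold, 17 members were higher (28.3%) against 25.6% of all measured genes, and 0 were lower against 18.8%.

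The members lay close together on the difference scale. Their SD over genes was 0.10, against 0.23 over all measured genes. The members were also brighter, with a median DMSO intensity of 503 against 207. Only 5 of them lay at a DMSO intensity from 32 to 128, which held 2324 of the measured genes. Neither this spread nor the counts past 1.2-fold were compared at matched intensity. Bacterial and phage control RNAs, added from outside and measured by 40 probe sets, had a mean log2 difference of -0.03 between the arrays. Their SD was 0.10 and their range ran from -0.33 to 0.16. Of the 60 members, 34 differed from 0 by no more than that SD, 26 lay above it and 0 lay as far below. Only 13 of the 60 fell outside the range of the controls, all of them on the higher side. The same counts over all measured genes were not made, and those genes also leaned higher (57.6%). This control spread does not hold differences between cultures. Across the 60 genes, the log2 difference showed no relation to the mean log2 intensity, with a Pearson r of -0.01 and a Spearman rho of 0.03, a description over genes that share both arrays.

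**Figure D1:**
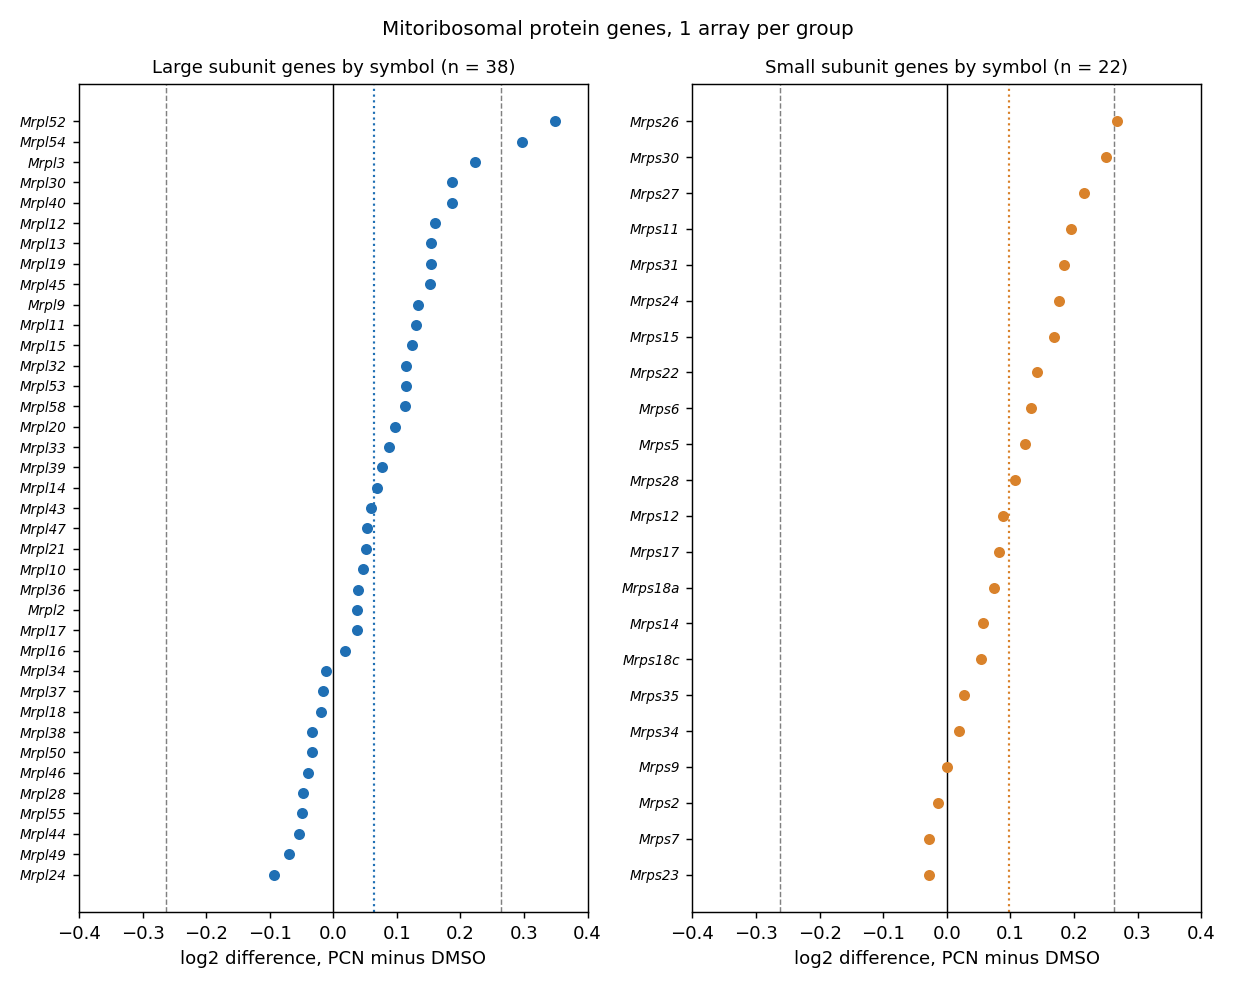
Log2 difference between the PCN and DMSO arrays (horizontal axis) for each measured mitoribosomal gene, with large subunit symbols on the left (n = 38) and small subunit symbols on the right (n = 22). The dashed lines mark 1.2-fold, the dotted line each median (0.06 and 0.10), and the points run from -0.09 to 0.35 with 3 beyond 1.2-fold, all higher with PCN.

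The cells carried the markers of hepatocytes. Of 6 hepatocyte markers, 5 were measured, with Alb at 21685 and 21383 and Ttr at 13614 and 13469 in the DMSO and PCN arrays. The remaining one, Tat, was under the floor in both. The summed intensity of the 6 was 69124 with DMSO and 68978 with PCN. Of 4 Kupffer cell and leukocyte markers, 3 endothelial markers, 3 stellate markers and 2 bile duct markers, 1, 1, 0 and 1 were measured. Those measured were Cd68, a macrophage lysosomal protein, at 1690.2 with DMSO and 1626 with PCN, Stab2, an endothelial scavenger receptor, at 42.1 and 37.0, and Krt19, a bile duct keratin, at 169 and 223. Under the floor were Ptprc, Adgre1, Clec4f, Pecam1, Kdr, Epcam and all 3 stellate markers. The summed intensity was 1712 and 1648 for the Kupffer cell and leukocyte list, 82.6 and 84.8 for the endothelial list and 18.7 and 18.9 for the stellate list. The summed bile duct intensity was 175 with DMSO and 227 with PCN, and the part of these markers in the values below was not tested. The ratio of 3′ to 5′ signal, a sign of RNA integrity, was 1.51 in both arrays for actin, and 0.985 and 0.978 for Gapdh. All 3 probe sets of the 18S rRNA controls were lower with PCN, from 27.6 to 20.7, from 49.5 to 31.1 and from 69.6 to 55.2. Their log2 differences, taken without the floor, were -0.42, -0.67 and -0.34. The first probe set was under the floor in both arrays, and the second was under it with PCN. The bearing of these probe sets on the members was not tested. Because the samples are bulk RNA, fewer cells of a type and less RNA per cell cannot be told apart.

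Large and small subunit genes were set against each other by level and by difference. The 38 measured large subunit genes had DMSO intensities from 82.3 to 3162 with a median of 618, and PCN intensities from 89.7 to 3385 with a median of 669. The 22 measured small subunit genes ran from 55.4 to 1235 with a median of 282 with DMSO, and from 60.4 to 1307 with a median of 328 with PCN. The medians of log2 DMSO intensity were 9.27 for the large and 8.14 for the small subunit, 1.13 apart, while the ranges of the groups overlapped over most of their length. A probe set's brightness depends on its probes as well as on its RNA, so this gap describes the probe sets and is not a ratio of subunit messages. Both groups were brighter than measured genes in general, whose median DMSO intensity was 207.

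By difference, the ranges of the subunits overlapped. The median log2 difference was 0.06 for large and 0.10 for small subunit genes (0.03 and 0.06 with the trend on intensity removed), a gap of -0.03 for large minus small. Whether this gap exceeds the variation between cultures could not be tested. PCN was higher in 27 of 38 large subunit genes (71.1%) and in 18 of 22 small subunit genes (81.8%). The 1.2-fold threshold was reached by 2 large (5.26%) and 1 small subunit gene (4.55%), where 9.06% of all measured genes reached it. These counts are too small to set against that share. The differences spanned -0.09 to 0.35 in the large and -0.03 to 0.27 in the small subunit. Symbols do not always give the subunit: Mrps30 and Mrps18a sit in the large subunit in structures of the particle. With these genes moved, the medians were 0.07 over 40 large and 0.10 over 20 small subunit genes, and the gap was -0.03 again.

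**Figure D2:**
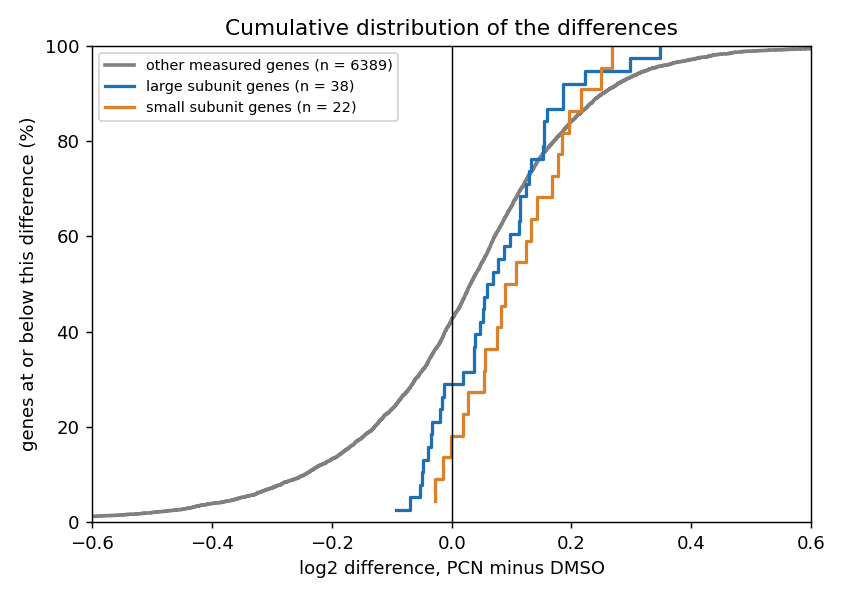
Cumulative share of genes (vertical axis, percent) at or below each log2 difference between PCN and DMSO (horizontal axis), for 38 large subunit genes, 22 small subunit genes and the other 6389 measured genes. The mitoribosomal curves start at -0.09 and -0.03 and end at 0.35 and 0.27, while the grey curve extends past the axis on both sides.

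The large subunit gene with the greatest difference was Mrpl52, a mitochondria-specific protein counted here with the central protuberance, the crown of the subunit that faces the small subunit. Its intensity was 613 with DMSO and 780.1 with PCN, a 1.27-fold difference. That put it at rank 272 of the 6449 measured genes from the highest difference. Mrpl54, a mitochondria-specific protein near the stalk, stood at 132 and 162, 1.23-fold higher, at rank 428. Neither was among the extremes of the array.

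The next 6 large subunit genes by size of difference were all under 1.2-fold. Mrpl3, a relative of a bacterial core protein, was at 208 and 243 (0.22 on the log2 scale). Mrpl30, at 2974 and 3385, and Mrpl40, at 721 and 820.0, both differed by 0.19. Mrpl12, at 1091 and 1218, differed by 0.16, and Mrpl13 and Mrpl19 by 0.15 each. All 6 were higher with PCN. In the other direction no large subunit gene came near that size, and the lowest was Mrpl24 at -0.09.

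In the small subunit, Mrps26, a mitochondria-specific protein, was the only gene past 1.2-fold, at 237 with DMSO and 285 with PCN (0.27 on the log2 scale, rank 562). Under quantile normalization, median centring and trend removal it fell short of 1.2-fold, at 0.23, 0.24 and 0.22. Mrps30, placed in the large subunit by structure, was just short of the threshold at 283 and 337, 1.19-fold higher. Mrps27, a pentatricopeptide repeat protein, was at 59.9 and 69.6, which is 0.22 on the log2 scale. Mrps11, which lines the platform of the small subunit, was at 205 and 235, a difference of 0.20. The next were Mrps31 at 0.18, Mrps24 at 0.18, Mrps15 at 0.17 and Mrps22 at 0.14. All 8 were higher with PCN. The 4 small subunit genes that were lower, Mrps23, Mrps7, Mrps2 and Mrps9, named after their values were seen, lay between -0.03 and 0.00.

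Genes with particular tasks were near the middle of the group. Mrps12, a protein of the decoding centre, had intensities of 573 and 609, a difference of 0.09. Mrps28, related to bacterial protein S1, was at 652 and 702, a difference of 0.11. Mrpl58, a peptidyl-tRNA hydrolase built into the large subunit, was at 1022 and 1105, also 0.11. Mrpl32, which must be cut by the m-AAA protease before it can be assembled, was at 503 and 544, again 0.11. Mrps18a was at 796 and 839, a difference of 0.07. Mrps36, now known as a subunit of the oxoglutarate dehydrogenase complex and not of the ribosome, was not analysed here.

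Proteins with a bacterial relative and mitochondria-specific proteins overlapped in their differences. Over 24 measured large subunit proteins with a bacterial relative the median was 0.06, with 19 higher and 5 lower. Over 16 that occur only in mitochondria, Mrps30 and Mrps18a included, it was 0.08, with 10 higher and 6 lower. In the small subunit, 13 proteins with a bacterial relative had a median of 0.09, with 10 higher and 3 lower. The 7 mitochondria-specific ones had a median of 0.14, with 6 higher and 1 lower. The 3 genes past 1.2-fold were all mitochondria-specific, a count too small to set against the background of 9.06%. Of these, only Mrpl52 stayed past 1.2-fold under all of quantile normalization, median centring and trend removal.

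Within the large subunit, 3 parts of the particle were described by medians over 5 or 6 measured genes each. The ranges of these parts overlapped, and differences between their medians were not tested. The stalk recruits the translation factors, and all 5 of its listed genes were higher with PCN, with a median of 0.13. Over all members 75% were higher, and over all measured genes 57.6%. Its core proteins Mrpl10 and Mrpl11 were at 650 and 671 (DMSO and PCN) and at 684 and 748, differences of 0.05 and 0.13. Mrpl12, the flexible arm of the stalk, was at 0.16, and its mitochondria-specific neighbours Mrpl53 and Mrpl54 were at 0.11 and 0.30. Of the 5, Mrpl54 alone passed 1.2-fold, where 9.06% of all measured genes did.

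The central protuberance had a median of -0.03, with 2 of 6 measured genes higher and 4 lower. Its mean was 0.07, and that of all measured large subunit genes was also 0.07. Mrpl52 and Mrpl40 were the higher ones, at 0.35 and 0.19. Mrpl18, Mrpl38, Mrpl46 and Mrpl55 were between -0.05 and -0.02, which is within the control SD of 0.10. At the exit of the peptide tunnel the median over 6 genes was 0.05, with 4 higher and 2 lower. Mrpl45, which anchors the particle to the inner membrane, was highest at 1068 and 1187, a difference of 0.15. Mrpl39, Mrpl47 and Mrpl17 were at 0.08, 0.05 and 0.04, and Mrpl44 and Mrpl24 at -0.05 and -0.09. The exit site median turned to -0.003 when the trend with intensity was removed. Mrpl22, Mrpl23, Mrpl27 and Mrpl48, also listed for these parts, were not analysed here.

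The 6 genes under the floor in both arrays were Mrpl1, Mrpl35, Mrpl41, Mrpl51, Mrpl57 and Mrps25. Their intensities ran from 4.83 for Mrpl41 to 20.4 for Mrpl57 with DMSO, and from 4.37 to 26.5 for the same genes with PCN. No difference is given for them. An intensity under the floor describes the probe set and does not show that the message was absent. The dimmest measured probe sets, chosen after their values were seen, were those of Mrps5 at 55.4 and 60.4, Mrps27 given above, and Mrps14 at 61.9 and 64.3, against the floor of 32.

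**Figure D3:**
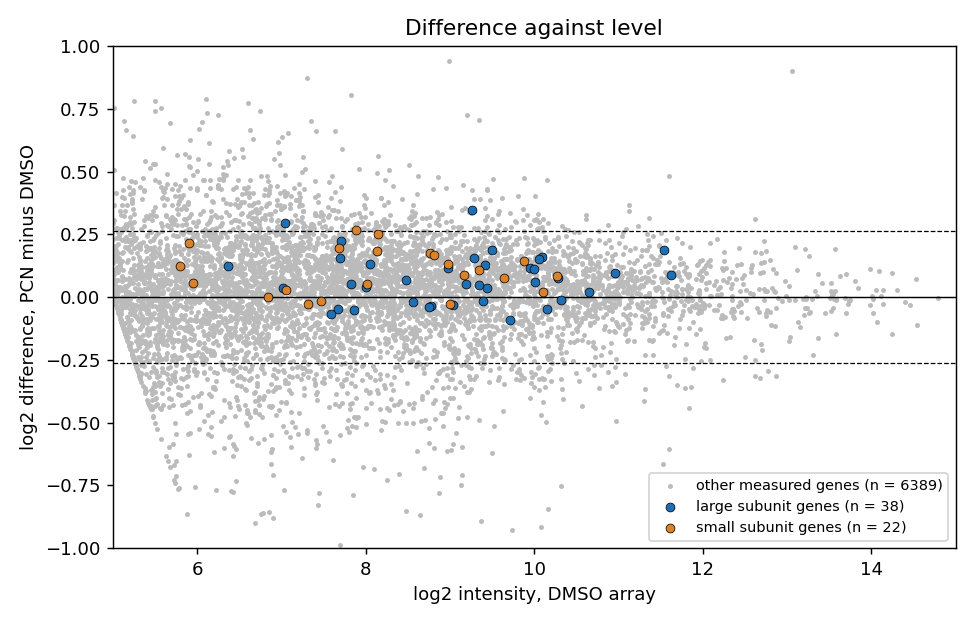
Log2 intensity in the DMSO array (horizontal axis) against the log2 difference between PCN and DMSO (vertical axis) for large subunit genes (blue), small subunit genes (orange) and other measured genes (grey), with dashed lines at 1.2-fold. The mitoribosomal genes lie between -0.09 and 0.35, at DMSO intensities from 55.4 to 3162, and 125 other genes lie outside the axes.

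Mitoribosomal proteins whose symbols do not follow the rule were close to the members. Dap3, a GTP-binding small subunit protein, was at 1287 and 1356, a difference of 0.07. Chchd1, also of the small subunit, was at 1548 and 1747, a difference of 0.17. Gadd45gip1, of the large subunit, was at 178 and 199.8, a difference of 0.17. All 3 were higher with PCN and none passed 1.2-fold. Cytosolic ribosomal protein genes were taken by symbol, which gave 20 with a probe set of 1 symbol. The 15 measured had a median of 0.05, with 10 higher, 5 lower and 0 past 1.2-fold in either direction. They need not stand for the whole cytosolic ribosome.

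The genes that serve the mitoribosome were more scattered than its proteins, but their lists were also dimmer. The median DMSO intensity was 253 for translation factors, 91.1 for assembly genes and 42.2 for synthetases, against 503 for the members. It was 145 for transcription and RNA processing and 172 for nuclear regulators. Scatter at matched intensity was not compared. Of 9 measured mitochondrial translation factors, PCN was higher for 6 and lower for 3, and the median was 0.11 within a range from -0.61 to 0.39. Mrrf, the factor that splits the ribosome after termination, had intensities of 517 with DMSO and 339.6 with PCN. It was 1.52-fold lower, a size that 1.30% of measured genes reached in that direction. Mtfmt, which formylates the initiator tRNA, was at 99.7 and 79.6, 1.25-fold lower. Mtrf1l, a release factor, was at 40.6 and 53.3, 1.31-fold higher. Lrpprc, which stabilises mitochondrial messages, was at 432 and 501, 1.16-fold higher.

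Of 19 measured genes of ribosome assembly and rRNA modification, PCN was higher for 11 and lower for 8, and the median of 0.03 turned to -0.003 with the intensity trend removed. Rcc1l, an assembly factor, was at 45.2 and 62.3, 1.38-fold higher. Fastkd2, which binds the large rRNA, was at 179 and 222, 1.24-fold higher. The lowest were the rRNA methyltransferase Mrm2 at -0.19 and the assembly factor Mettl17 at -0.17. In this list 3 genes passed 1.2-fold higher (15.8%, against 9.06%) and 0 lower.

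Aminoacyl-tRNA synthetases and their partners had 8 higher and 6 lower of 14 measured, with a median of 0.04, which turned to -0.002 with the trend removed. Most of them were dim, with a median DMSO intensity of 42.2. Gatb, a subunit of the enzyme that makes glutaminyl-tRNA, was at 40.0 and 54.2, 1.35-fold higher, and Yars2 was at 107 and 131, 1.22-fold higher. Hars2 was at 44.1 and 34.2, 1.29-fold lower, and Sars2 was at 80.8 and 72.0, 1.12-fold lower. The genes of mitochondrial transcription and RNA processing had 6 higher and 2 lower of 8, with a median of 0.10. Among these, Pnpt1, an RNA-degrading phosphorylase, was 1.25-fold higher and Tefm, an elongation factor, 1.21-fold higher. Polrmt, the mitochondrial RNA polymerase, was 1.12-fold lower and Hsd17b10, a part of mitochondrial RNase P, 1.09-fold lower.

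Of 10 nuclear regulators of mitochondrial genes, 6 were measured, with 4 higher, 2 lower and a median of 0.21. Myc was at 784 with DMSO and 1032 with PCN, 1.32-fold higher, and Yy1 was at 945 and 1134, a difference of 0.26. Gabpa and Gabpb1, the GABP subunits, were at -0.02 and -0.06. Nrf1 was under the floor in both arrays, at 15.04 and 13.70, and so were the coactivators Ppargc1a and Ppargc1b.

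**Figure D4:**
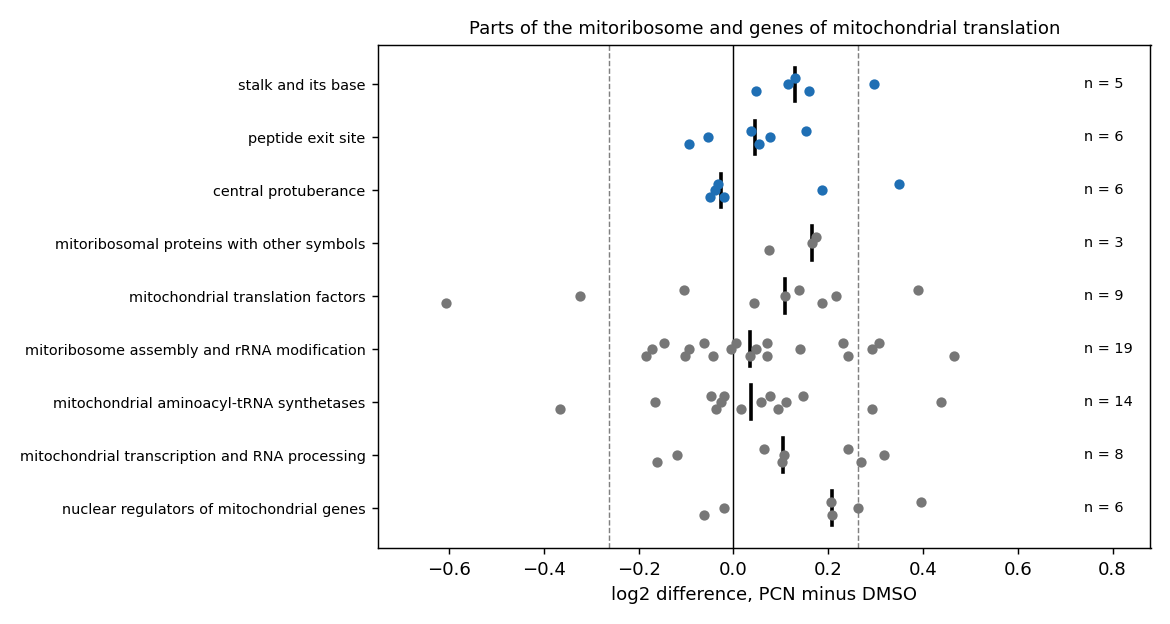
Log2 difference between PCN and DMSO (horizontal axis) for each measured gene of parts of the large subunit (blue) and of the other lists (grey). Each gene is 1 point, with a black bar at each median, dashed lines at 1.2-fold and n the measured genes. The stalk genes all lie above 0, and the central protuberance splits into 2 high and 4 near 0. The grey lists run from -0.61 to 0.47. Mitoribosomal proteins with other symbols, also grey, lie from 0.07 to 0.17 and were brighter than the members, with a median DMSO intensity of 1287. The other grey lists spread more widely and were dimmer than the members.

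Promoter windows of 300 bases were found in the RefSeq table for 52 of the 60 measured members. The NRF1 core motif CGCANGCG occurred in 16 of them (30.8%), against 9.22% of all 27025 genes with a window and 21.3% of the measured genes with one. For the GABP motif CCGGAAGT the count was 9 (17.3%), against 4.31% and 10.95%. The YY1 motif AAGATGGC occurred in 10 (19.2%), against 3.19% and 6.09%. At least 1 of the 3 motifs was found in 28 of 52 members (53.8%), against 33.9% of measured genes. A match is only a match of letters on either strand, and NRF1 matches can overlap each other, as they do in Mrps26 above.

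The median log2 difference was 0.07 with and 0.08 without the NRF1 motif, 0.14 and 0.07 for GABP, and 0.08 and 0.07 for YY1. The NRF1 motif was shortened after the medians of a longer form had been seen. With that longer form, the members holding it had the higher median, so the NRF1 direction depends on the form chosen. PCN was higher in 12 of 16 members with the NRF1 motif and in 26 of 36 without it, in 8 of 9 and 30 of 43 for GABP, and in 7 of 10 and 31 of 42 for YY1. These differences were not tested. Over all measured genes with a window, the medians with and without were 0.05 and 0.03 for NRF1, 0.06 and 0.03 for GABP, and 0.06 and 0.03 for YY1. The GABP holders included Mrpl52, Mrps26, Mrpl3, Mrps27 and Mrps22, and also Mrpl18 at -0.02. The NRF1 holders included Mrps26, Mrpl30, Mrpl12, Mrpl45 and Mrpl32, and also Mrpl44 at -0.05 and Mrpl49, named after its value was seen, at -0.07.

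Some members share their promoter region with a gene on the other strand. Of the 52, 21 had a window that overlapped one of another gene read the opposite way, and 11 such pairs had both genes measured. The share of all genes with such a window was not counted. In 6 pairs both genes lay on the same side of 0, and in 5 they lay on opposite sides. Whether this split differs from that of unrelated genes was not tested. Mrps11 and Mrpl46, a small and a large subunit gene whose windows share 141 bases, were at 0.20 and -0.04. Mrps12 was at 0.09, and Sars2, the mitochondrial seryl-tRNA synthetase across from it, at -0.17. Mrpl2 was at 0.04 while Klc4, a kinesin light chain, was at 103 and 75.6, a difference of -0.45. Mrps27 and Ptcd2, both pentatricopeptide repeat genes, were at 0.22 each. Mrpl32 and the proteasome gene Psma2 were at 0.11 and 0.08, and Mrpl43 and Twnk, the mitochondrial DNA helicase, at 0.06 and 0.02. The partners were named after their values were seen.

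**Figure D5:**
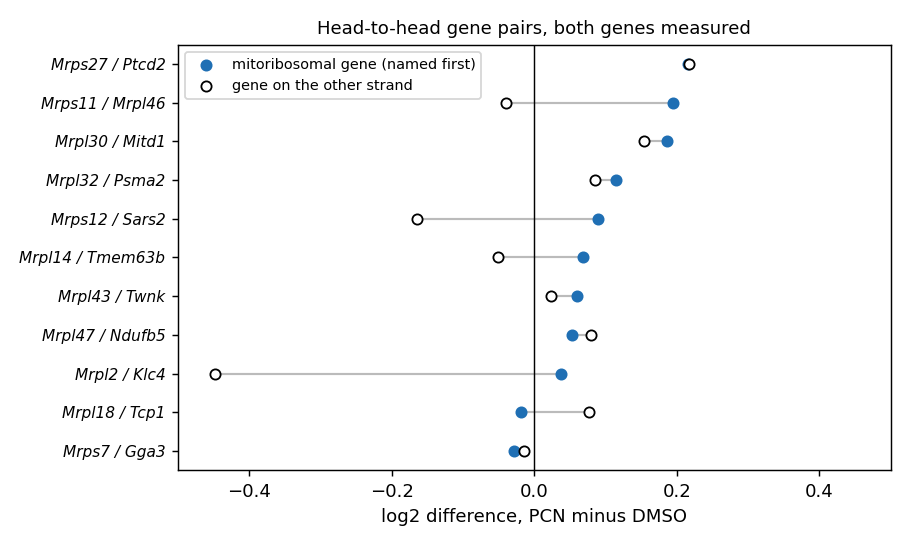
Log2 difference between PCN and DMSO (horizontal axis) of both genes of the 11 head-to-head pairs that were measured, with the mitoribosomal gene named first as a filled point and the gene on the other strand as an open point. Of the pairs, 6 lie on 1 side of 0 and 5 span it, the widest being Mrpl2 at 0.04 with Klc4 at -0.45.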

How the data were processed

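RNA was measured on 1 one-colour Affymetrix array per group, from RNA of 3 samples pooled before labelling, 5 µg in total, per the labels' protocols. The deposited values are linear GCRMA intensities (GCRMA 2.2.0 per the submitters' processing notes), which are background-corrected, normalized between arrays and summarised per probe set by the authors, so the arrays cannot show whether cells held more or less RNA in all. Genome build and probe set definition: not given in the sources used here. Each member had 1 probe set, and all 66 Entrez numbers carried the same symbol in RefSeq (GRCm38.p6). Of 78 protein-coding RefSeq genes with such symbols, 12 were not analysed here.

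Log2 differences (PCN minus DMSO) were calculated in pandas 2.3.3 and numpy 2.4.6 under Python 3.11.15. The floor was 5 on the log2 scale (32). A value under it in 1 array would have been raised to it. With 1 array per group, no test or error between cultures was possible, depth has no meaning for intensities, and treatment and batch cannot be told apart. Lists come from known roles. From each, the text names fixed roles and the largest differences: 8 per subunit, and 2 each way in the other lists, with other genes marked. The members and lists were chosen with earlier results of these data known. Alternatives were other floors, thresholds and scalings (loess with statsmodels 0.14.6, fraction 0.3) and subunits by structure. The procedure was tested on simulated data. Motifs were searched on both strands of RefSeq windows, with 25 bases after the start not printed. The NRF1 motif was shortened to its core after the matches and medians of a longer form had been seen; with the longer form, the members holding it had the higher median.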

Additional observations from a re-analysis of the deposited data

How the results depend on the processing

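All alternatives below were planned, while the NRF1 motif was changed after its medians had been seen. Of 86 values under 11 settings, 0 changed sign, but those that are counts could not. The gap in DMSO intensity could not change under centring or trend removal. Medians of the gene lists are not among the 86. With the trend removed, the exit site and assembly medians turned to -0.003 and the synthetase median to -0.002. The median log2 difference of all members ranged from 0.046 with the intensity trend removed to 0.080, that of the large subunit from 0.025 with the trend removed to 0.072 with subunits by structure, against 0.064, and that of the small subunit from 0.061 with the trend removed to 0.098. The gap between subunits, large minus small, ranged from -0.04 to -0.02. The number past 1.2-fold higher was 3. It was 1 with the trend removed (Mrpl52) and 5 with no floor, which adds 6 dim genes. With thresholds of 1.1-fold, 1.5-fold and 2-fold it was 17, 0 and 0. The subunit gap in log2 DMSO intensity was 0.89 with no floor, against 1.13. Of the 45 higher members, 39 stayed higher under quantile normalization, median centring and trend removal, while Mrpl2, Mrpl16, Mrpl17, Mrpl36, Mrps34 and Mrps35 turned lower under at least 1 of these. All 15 lower members stayed lower under these 3 scalings. The median of all measured genes was 0.032 in the main setting, 0.017 under quantile normalization and 0.002 with the trend removed. Centring sets it to 0. Leaving out a replicate needs more than the single array of each group. No paired analysis was possible because there is a single array of either kind. Signal near background limits the 6 genes under the floor.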
